A study of Mus musculus with 16 samples.

Results

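The interaction of spinal cord injury (SCI) and cardiotoxin (CDTX) was measured as a difference of differences in mouse muscle: the change with CDTX in mice with a cord injury minus the change with CDTX in sham-operated mice. It was computed over 15 of the 16 arrays of the series, because SCI+CDTX replicate 2 was left out and then added back as a check. All mice were female, and per the labels they had either SCI at the lower thoracic vertebrae or sham surgery, each with an injection of CDTX or of saline into the muscle. The 4 groups are SCI+CDTX (3 arrays), SCI+saline (4 arrays), Sham+CDTX (4 arrays) and Sham+Saline (4 arrays). Whole hamstring muscle was taken 2 days after surgery, so each value is an average over fibres, immune cells, vessels, nerve and connective tissue, and neither strain nor age is given in the labels used here. Per the series' design text, SCI+CDTX is the group in which neurogenic heterotopic ossifications form later, so the interaction asks what the combination did to gene expression beyond the sum of the separate insults. Checked against the labelled tissue, the median level of 38 contractile genes of muscle fibres was 10.64 to 12.94 (log2) on the 16 arrays. Nothing states whether 1 array is 1 animal, so the p-values measure the spread between these samples.

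Neurogenic heterotopic ossification is bone that forms in muscle after an injury of the central nervous system, usually where the muscle has been damaged as well. Cardiotoxin is a snake venom polypeptide that breaks the membranes of muscle fibres, after which neutrophils and macrophages clear debris, satellite cells divide, and fibroadipogenic progenitors, the stromal cells that can turn to fat, scar or bone, lay down matrix. A muscle cut off from its nerve input switches on embryonic acetylcholine receptor subunits, myogenic regulators and atrophy genes by itself.

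A positive interaction means that CDTX moved a gene further up, or less far down, in SCI mice than in sham mice, and a negative one the reverse. Values are differences of log2 normalized intensities, and a probe is called where limma's adjusted p (Benjamini-Hochberg, over all probes tested) is under 0.05. Of 14763 probes for 10952 genes, 3507 (23.8%) were called, 1787 positive (12.1%) and 1720 negative (11.7%), and 1856 of them were at least 1 log2 unit from 0. Taking the brightest probe of each gene, 1527 genes were called positive (13.9%) and 1286 negative (11.7%). These percentages are the background for the counts of list members, which were taken in the same way. For the list counts with all 16 arrays the background is smaller, at 743 positive and 555 negative of the 10952 genes. Median scaling of the arrays in place of quantile normalization moved the median interaction over all probes from -0.01 to -0.24 and changed the split to 841 positive and 3902 negative, which is 17.7% positive against 51% with quantile normalization. The lists of fibroadipogenic progenitor, Schwann cell, contractile, glycolysis and fatty acid oxidation genes had more positive than negative calls with quantile normalization and fewer with median scaling.

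The called probes differed in where the CDTX effect lay. The CDTX effect was called only with sham surgery for 1391 of them (39.7%) and only with cord injury for 1066 (30.4%). It was called in both with opposite signs for 496 (14.1%), and in both with 1 sign and unequal sizes for 477 (13.6%). Some of the called probes had a less-than-additive pattern. Of these, 483 were raised by SCI alone and by CDTX alone without the combination reaching the sum, and 716 were lowered by each alone in the same way. Each single effect and the interaction hold the same Sham+Saline mean, so a shift in that group alone would give this pattern, which was not tested. In SCI+CDTX 394 probes were higher and 322 lower than in each other group.

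A difference between probes of the same gene set the Sham+CDTX arrays and SCI+CDTX 2 apart from the other arrays. A gap that sets 1 group apart enters the difference of differences. The slides hold 1 surgery each, but each CDTX effect lies within 1 slide, so a constant shift between slides leaves the difference of differences as it was. Between 11114 and 13694 probes were detected per array, with mean intensities of 230.5 to 277 on the Sham+Saline arrays and 319.9 to 373.1 on the others. A probe difference score was taken from the gaps between the 2 brightest probes of each of 2782 genes, as the first principal component over 16 arrays (33.5% of the variance, in SD units). It stood at 1.38 to 1.56 on the Sham+CDTX arrays and at 1.11 on SCI+CDTX 2, while the other 11 arrays lay between -1.06 and -0.27. With SCI+CDTX 2 added, 1568 probes were called, and 1567 (44.7%) of the 3507 kept their call. In SCI+CDTX the score thus ranged from -0.47 to 1.11, a wider span than in the other groups. In a fit that holds the 4 groups, its slope therefore leans on SCI+CDTX 2. That fit is no independent check: Ankrd1 was -3.81 in it and -3.92 with SCI+CDTX 2 in place of the other 3. With the score in the fit as well, the median standard error grew from 0.246 to 0.362, and 33 of the 3507 (0.941%) kept their call. The values with 16 arrays and with the score are therefore given beside the leading genes.

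Different probes of a gene often disagreed. Of 2740 genes with at least 2 kept probes, 1188 had at least 1 called probe, 342 had 2 or more called, and in 44 of these 342 called probes went opposite ways. In 322 genes the first and last probes on 1 transcript differed by more than 1 log2 unit, with at least 1 of them called. Among these the downstream probe had the higher interaction in 242 (75.2%). It was the higher one in 1203 (57.1%) of all 2107 pairs, and in 90 (56.2%) of the 160 pairs with both probes called. The share of probes called positive was 4.87% for probes that start within 500 bases of the transcript's start and 16.4% for those beyond 3000 bases, and the share called negative was 14% and 7.83%. Probe GC content moved with the calls too, with 7.75% positive at up to 44% GC and 13.3% above 52%. The part of these probe features in the interaction was not tested beyond the score.

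**Figure D1:**
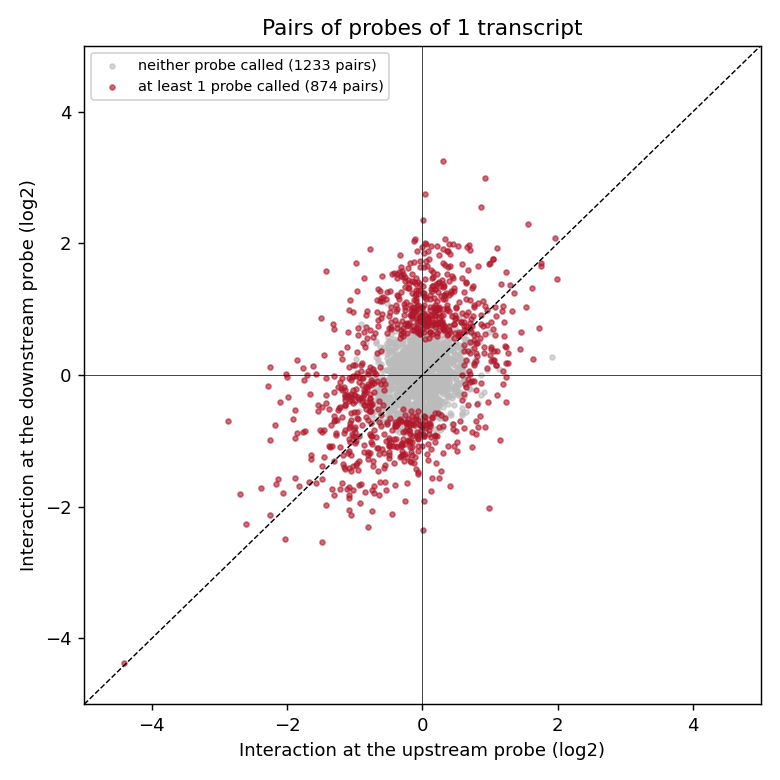
Interaction at the first (x axis, log2) and the last (y axis, log2) probe along 1 transcript, 1 point per gene; the dashed line marks equal values. Of all 2107 pairs 1203 lie above the line, and of the 874 genes with at least 1 of the pair called, 557 do. The Ankrd1 pair stands alone at the lower left.

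Actb, which encodes cytoplasmic beta-actin, and Ankrd1, a stress-induced repeat protein of the sarcomere and nucleus, show both situations. The first 30 bases of their 50-base probes are printed in the order of their places along the RefSeq transcript version each was matched to.
Actb, from base 14: tccacccgcgagcacagcttctttgcagct
Actb, from base 1173: ccggcccctccatcgtgcaccgcaagtgct
Actb, from base 1408: cggtgaaggcgacagcagttggttggagca
Actb, from base 1412: ggtgaaggcgacagcagttggttggagcaa
Actb, from base 1610: tcgcgtccatgccctgagtccaccccgggg
Ankrd1, from base 975: cagcctcaaggagaatgcctacaagaactc
Ankrd1, from base 1575: gatgtcgatgtcccaaggtgaaggcaacgt
From the first to the last Actb probe the interaction was -1.02, 0.06, 3.96, 4.09 and 0.96. The probes from bases 1408 and 1412 overlap and were not detected on 4 and 3 of the 4 Sham+CDTX arrays, where they stood at 4.34 to 4.52, whereas the brightest Actb probe stayed between 13.57 and 13.96 on all 15 arrays. Mllt3, a chromatin reader of the super elongation complex, likewise had values of -3.41, -0.24, -0.08 and 0.54 at its 4 probes. The 2 Ankrd1 probes sit at separate sites and read -4.41 and -4.37. Genes were therefore preferred where all kept probes were called with 1 sign.

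That held for 183 genes, 67 positive and 116 negative, out of the 2740 genes with at least 2 probes. In 143 of them (42 positive, 101 negative) at least 2 probes sit at separate sites, a count made after the data were seen, since probes that share 20 bases measure nearly the same thing. With all 16 arrays 68 of the 183 kept a call at each probe, and with the score 1 did, which was Ankrd1.

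Ankrd1 had the lowest interaction of all genes tested. Its brighter probe read 11.24, 11.15 and 11.14 in SCI+CDTX, 12.65, 12.13, 12.55 and 11.52 in SCI+saline, 9.74, 9.47, 9.62 and 9.69 in Sham+CDTX, and 6.58, 5.34, 6.38 and 6.88 in Sham+Saline. Among the 15 arrays no group overlapped another, with SCI+saline highest and SCI+CDTX next, but SCI+CDTX 2 read 11.63 and lay within the SCI+saline range. CDTX raised Ankrd1 10.1-fold in sham mice (adjusted p = 1.75e-08) and lowered it 2.05-fold in SCI mice (adjusted p = 0.00634). The interaction was -4.37 ± 0.39 (SE, adjusted p = 1.97e-06, limma), -4.25 with 16 arrays and -3.81 with the score.

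The other leading negative genes fell into those that CDTX raised in sham mice and those that it lowered in SCI mice. Lbh, a transcription cofactor of limb and heart development, read 7.97, 8.11 and 7.75 in SCI+CDTX, 7.59 to 8.12 in SCI+saline, 9.24 to 9.50 in Sham+CDTX and 6.72 to 7.44 in Sham+Saline. The Sham+CDTX arrays stood above the rest of the 15, though SCI+CDTX 2 read 9.07, and the interaction was -2.26 and -2.61 at its probes (-1.98 and -2.14 with 16 arrays). Ifit2, an interferon-induced antiviral protein, had the same form, with 7.96 to 8.54 in Sham+CDTX against 5.32 to 6.26 on the other arrays of the 15, 6.36 on SCI+CDTX 2, and interactions of -2.03 and -2.49. Per2, a repressor of the circadian clock, was raised by SCI alone (log2 change 1.96, adjusted p = 2.13e-06) and by CDTX alone (1.13, adjusted p = 0.000262), and fell by 1.13 with CDTX in SCI mice. Its interaction was -2.26 and -2.13 at its probes. Fez1, an adaptor of axonal transport, rose by 2.66 with SCI alone and fell by 1.74 with CDTX in SCI mice, with interactions of -2.06 and -2.08 at overlapping probes.

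The remaining leading negative genes moved strongly with the left-out array. Mef2c, a transcription factor that drives muscle differentiation, stood at 8.52, 7.24 and 8.07 in SCI+CDTX and at 9.42 to 10.75 on the 12 arrays of the other groups, without overlap. Its 3 probes gave -1.72, -2.39 and -3.07, but SCI+CDTX 2 read 10.03, no probe was called with 16 arrays (-1.20 at the brightest) and the sign turned with the score (0.89). Mlf1, Psmd6, Anxa11, Slirp, Pja2 and Twistnb also turned sign with the score. Psmd6, a proteasome lid subunit, read 6.45 to 7.60 in SCI+CDTX 1, 3 and 4 and 10.38 in SCI+CDTX 2, so for this gene the left-out array lies far from its group.

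The leading positive genes were mostly lowered by CDTX in sham mice and raised, or not called, in SCI mice. Ptprs, a receptor phosphatase that binds matrix proteoglycans, read 8.60, 8.85 and 8.55 in SCI+CDTX, 6.89, 6.13, 6.67 and 7.55 in SCI+saline, 8.46, 8.35, 8.18 and 8.04 in Sham+CDTX, and 9.38, 9.37, 9.10 and 9.28 in Sham+Saline. SCI+saline was the low group and Sham+Saline the high one, and both CDTX groups lay between them. The interaction was 2.88 ± 0.31 (SE, adjusted p = 7.34e-06), 2.51 with 16 arrays and 1.04 with the score. Ptx3, a soluble pattern recognition protein of inflamed tissue, was 8.56 to 9.36 in SCI+CDTX, above the other arrays of the 15 (5.21 to 8.0), with interactions of 2.92 and 2.60, and SCI+CDTX 2 read 6.87. Both genes have overlapping probes and so count as 1 site.

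At separate sites, Cxcl12, the chemokine that holds CXCR4-bearing cells in marrow and stroma, was called at all 3 probes (2.20, 1.68 and 1.57). Its brightest probe read 10.05, 10.45 and 10.26 in SCI+CDTX, 8.74, 8.11, 9.27 and 10.06 in SCI+saline, 9.34 to 9.95 in Sham+CDTX and 10.57 to 10.89 in Sham+Saline. SCI+saline overlapped SCI+CDTX at 1 array. With 16 arrays 2 of these probes stayed under the threshold, at 2.01 and 1.22, and the third had an adjusted p of 0.0817. Hp, which encodes the haemoglobin scavenger haptoglobin, rose by 3.02 with CDTX in SCI mice and by 1.56 in sham mice, and its interactions of 1.46, 1.99 and 2.07 were thus of a rise in both. At the brightest Hp probe the call was lost with 16 arrays (adjusted p = 0.106) and without SCI+CDTX replicate 3. Fhl1, a LIM protein of the sarcomere, gave 1.78 at each of 2 probes and 1.69 and 1.68 with 16 arrays. Sncg (1.76 and 1.71), a synuclein of nerve and fat cells, and Mast2 (2.08 and 1.96), a microtubule-associated kinase, also had separate sites.

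The last 5 of the 12 leading positive genes were called at probes that overlap. They were Sema3f (2.25 and 2.08), a secreted guidance cue for axons and vessels, Ttyh2 (1.95 and 2.69), a membrane protein, Tsc2 (1.64 and 1.56), the brake on mTORC1, Mfn1 (1.55 and 1.59), which fuses mitochondria, and Triobp (1.47 and 1.54), which bundles actin. For Mfn1 the CDTX effect was -1.86 in sham mice and -0.31 in SCI mice, the latter not called. All 5 kept their calls at the brightest probe with 16 arrays, and none did with the score.

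**Figure D2:**
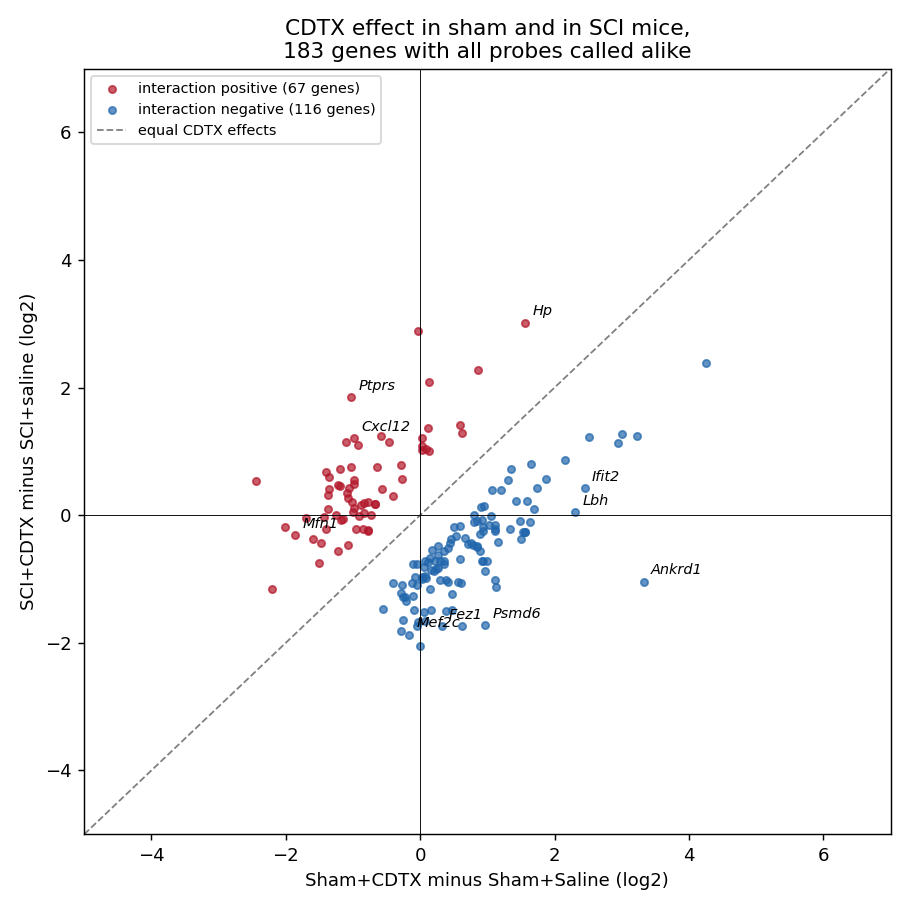
CDTX effect in sham mice (x axis, log2) and in SCI mice (y axis, log2) at the brightest probe of the 183 genes with all probes called alike; the dashed line marks equal effects, which a called gene has to lie off. Red points have a positive and blue points a negative interaction, and Ankrd1 lies at 3.33 and -1.04.

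Across all genes, 26 were called at their brightest probe in each of 3 fits: 15 arrays, 16 arrays, and 16 arrays with the score. The 3 fits share arrays and the last leans on SCI+CDTX 2, so they are not independent checks. They were picked after their values were seen, 6 positive and 20 negative, and 4 of them (Ankrd1, Myog, Cdkn1a and Cd63) also had all probes called alike. Several of the negative ones were raised by both single insults without the combination reaching their sum. Cdkn1a, the cell-cycle inhibitor p21, is a case with 3 probes. It read 10.15, 10.02 and 10.18 in SCI+CDTX, 10.48, 10.47, 10.77 and 10.42 in SCI+saline, 9.78, 9.34, 9.69 and 9.37 in Sham+CDTX, and 8.42, 8.35, 8.43 and 8.34 in Sham+Saline, with no overlap. SCI alone raised it by 2.15 and CDTX alone by 1.16, and the interaction was -1.57, -2.11 and -1.89 at its probes.

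Cd63, a tetraspanin of late endosomes, stood at nearly 1 level in 3 groups. Its levels were 12.74, 12.85 and 12.65 in SCI+CDTX, 12.62, 12.89, 12.57 and 12.55 in SCI+saline, 12.60, 12.51, 12.64 and 12.60 in Sham+CDTX, and 10.71 to 11.03 in Sham+Saline. The first 3 groups overlapped and the last lay apart, giving an interaction of -1.60 ± 0.18 (adjusted p = 1.31e-05) and -1.65 with the score. Cd82, a tetraspanin, Ugcg, which makes glucosylceramide, and Aif1l, an actin-binding protein, rose with each insult alone and had no called CDTX effect in SCI mice, with interactions of -2.75, -2.09 and -2.81. Tubb6, a tubulin, still rose by 0.75 with CDTX in SCI mice, and its interaction was -1.72. Gdf15, a stress cytokine, differed: it read 6.45 to 6.67 in Sham+CDTX and 5.36 to 5.59 in SCI+CDTX, with interactions of -1.57 and -1.58 with the score. Cpne2, a calcium-dependent phospholipid binder, rose by 3.92 with SCI alone and fell by 1.38 with CDTX in SCI mice.

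**Figure D3:**
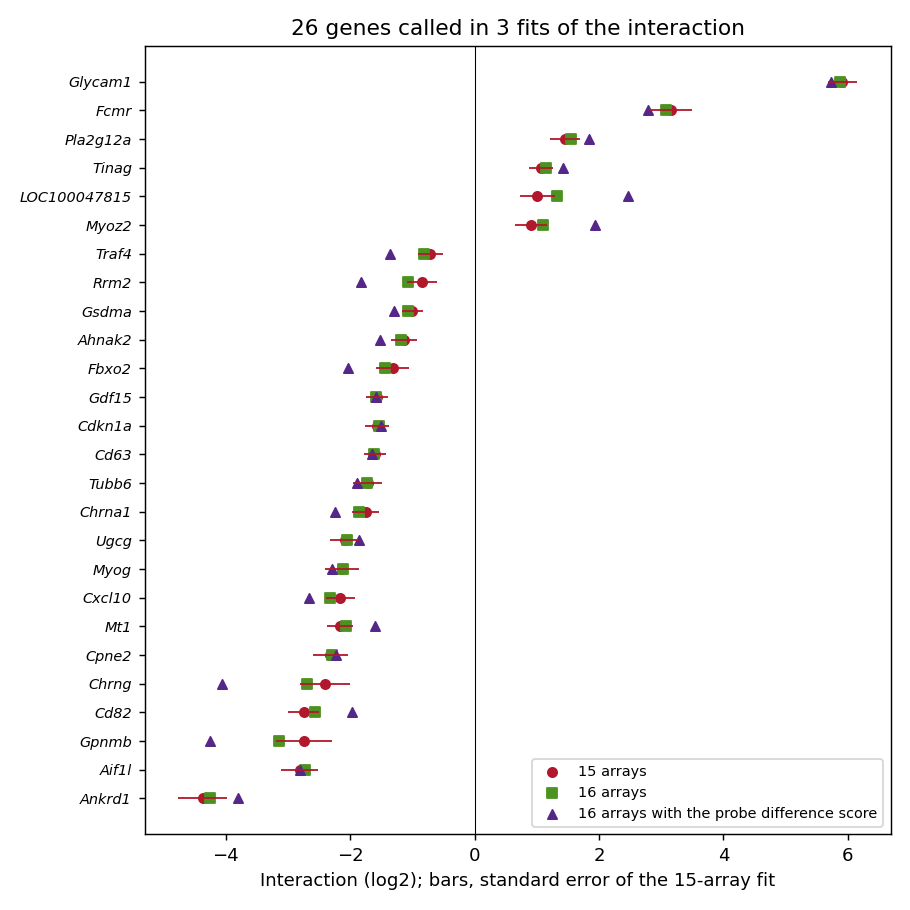
Interaction (x axis, log2) of the 26 genes called in all 3 fits, with circles for 15 arrays, squares for 16 arrays and triangles for 16 arrays with the probe difference score; bars are the standard error of the 15-array fit. Glycam1 is at 5.91, 5.88 and 5.73, and Ankrd1 at -4.37, -4.25 and -3.81.

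Genes of denervation and the neuromuscular junction were called negative in 8 of 21 measured members and positive in 2, with a median of -0.49 against 0.01 over all genes. With 16 arrays 6 stayed negative and 1 positive. Among the acetylcholine receptor subunits, Chrng, the embryonic gamma subunit, read 8.38, 8.37 and 8.73 in SCI+CDTX, 7.75, 7.90, 8.68 and 9.24 in SCI+saline, 8.52, 7.34, 7.72 and 7.83 in Sham+CDTX, and 5.27, 5.32, 5.36 and 5.46 in Sham+Saline. The 3 injured groups overlapped while Sham+Saline lay below them.
Its interaction was -2.40 ± 0.40 (SE, adjusted p = 0.000271), -2.69 with 16 arrays and -4.06 with the score. Chrna1, the alpha subunit, gave -1.75 ± 0.22 at its brightest probe (adjusted p = 2.49e-05) and was called at 2 of 3 probes. It stood at 10.55 to 10.69 in SCI+CDTX, 10.66 to 11.17 in SCI+saline, 9.80 to 10.40 in Sham+CDTX and 8.48 to 8.61 in Sham+Saline. Chrnb1 (-0.88) and Chrnd (-0.73) were called at their brightest probes with 15 arrays and not with 16.

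Chrng and Chrna1 are shown with the 250 bases upstream of their RefSeq start (GRCm38.p6), because both subunits moved together and their control by myogenic factors through E-boxes is well known. Capitals mark CAGCTG, an E-box core that reads the same on both strands.
Chrng, chr1:87205561-87205810, plus strand: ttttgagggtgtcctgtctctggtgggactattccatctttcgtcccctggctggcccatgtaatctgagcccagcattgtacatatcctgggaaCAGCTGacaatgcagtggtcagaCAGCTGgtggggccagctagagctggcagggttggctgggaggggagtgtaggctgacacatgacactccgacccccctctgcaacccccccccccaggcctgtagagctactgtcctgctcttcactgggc
Chrna1, chr2:73580339-73580588, minus strand: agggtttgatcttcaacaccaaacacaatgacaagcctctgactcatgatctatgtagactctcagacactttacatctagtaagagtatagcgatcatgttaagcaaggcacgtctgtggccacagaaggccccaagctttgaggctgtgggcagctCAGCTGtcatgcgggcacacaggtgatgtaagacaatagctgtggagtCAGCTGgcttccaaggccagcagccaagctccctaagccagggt
Each holds 2 copies, and 13% of 32851 RefSeq promoters hold at least 1 in the same window. The windows of Myog and Ankrd1 hold none. CATTCC, the M-CAT core, searched on both strands, occurs 2 times upstream of Ankrd1 and in 12.6% of all promoters. These matches describe the letters and show no binding.

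Myog, the myogenic factor myogenin, read 8.84, 8.65 and 8.61 in SCI+CDTX, 9.77, 9.39, 9.73 and 9.95 in SCI+saline, 8.07, 7.13, 7.14 and 7.49 in Sham+CDTX, and 6.50, 6.41, 6.34 and 6.12 in Sham+Saline. The groups did not overlap, and as for Ankrd1 the level after SCI alone was the highest. Both Myog probes were called, at -2.13 and -1.06, and the brighter one gave -2.12 with 16 arrays and -2.29 with the score. Chrna9 had the lowest value of the list, at -3.06 ± 0.36 (adjusted p = 1.42e-05). SCI alone raised this receptor subunit by 4.39, and CDTX on top of it lowered it by 2.20. However, SCI+CDTX 2 read 9.03, near SCI+saline (9.19 to 9.75) and above the other SCI+CDTX arrays (6.71 to 7.83). The interaction of Chrna9 was -2.62 with 16 arrays and -0.91 with the score, where it was not called (adjusted p = 0.548). Musk, the agrin receptor kinase, gave -2.08 at its brightest probe, with 1 of 2 probes called, and Runx1, a factor induced by denervation, gave -1.97. Agrn, the nerve-derived organizer of receptor clusters that vessels and stroma also make, went the other way at 2.11, and Lrp4, its co-receptor, at 0.94. Agrn was 1.73 with 16 arrays (adjusted p = 0.0208) and 0.02 with the score.

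Stress and injury genes of the sarcomere were called negative in 7 of 26 and positive in 3, with 4 and 2 left on 16 arrays. Rrad, a small GTPase of damaged muscle, read 9.06, 8.47 and 8.16 in SCI+CDTX, 9.50 to 10.93 in SCI+saline, 6.66 to 7.21 in Sham+CDTX and 4.81 to 5.95 in Sham+Saline. The order of the groups was that of Ankrd1, without overlap, and the interaction was -3.18 ± 0.43 (adjusted p = 5.81e-05), -2.99 with 16 arrays and -2.49 with the score, where it was no longer called. Krt8 and Krt18, keratins that form filaments together, gave -2.23 and -2.27, and SCI alone had raised them by 3.37 and 5.11. In Sham+Saline Krt18 was detected on 0 of 4 arrays, so its size there has no exact value. Ankrd2, a stretch-responsive relative of Ankrd1, was positive at 1.46, because CDTX lowered it from 9.71 to 7.09 in sham mice and from 10.81 to 9.65 in SCI mice. Myh8, the perinatal myosin, gave 1.96 at its brightest probe and was called at 1 of 2.

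Contractile genes showed few calls, 3 positive and 2 negative of 38, with a median of 0.09. Mybpc1, a myosin-binding protein of slow and fast fibres, had 1.33 ± 0.25 (adjusted p = 0.000814) at the brightest of 3 probes and was not called at the other 2 (0.73 and -0.40). Myoz2, a calcineurin-binding Z-disc protein, read 8.07, 7.62 and 8.11 in SCI+CDTX, 9.16 to 9.96 in SCI+saline, 7.87 to 8.23 in Sham+CDTX and 10.27 to 10.83 in Sham+Saline. Both CDTX groups met at one low level from unequal starts, and the interaction was 0.91, 1.10 with 16 arrays and 1.93 with the score. Casq2 (1.05), a calcium store protein, was positive, while Myom1 (-1.46) and Myoz1 (-1.18) were negative and turned sign with the score (0.89 and 0.68). With 16 arrays 2 were positive and 0 negative, and Casq2 lost its call in 5 of the 15 fits that left out 1 array. In whole muscle, fewer fibres and less RNA per fibre cannot be told apart.

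Muscle precursor genes were called negative in 6 of 16 and positive in 2, and with 16 arrays in 3 and 2. Myod1, the determination factor of myoblasts, read 7.80, 7.79 and 8.01 in SCI+CDTX, 8.33, 8.36, 8.53 and 8.07 in SCI+saline, 8.07, 7.94, 7.99 and 7.75 in Sham+CDTX, and 6.36, 5.95, 5.72 and 4.81 in Sham+Saline. The 3 injured groups lay close together, far above Sham+Saline, and the interaction was -2.68 ± 0.33 (adjusted p = 2.43e-05), -2.55 with 16 arrays and -2.31 with the score (adjusted p = 0.0745). Cxcr4, the receptor of Cxcl12, was -1.80, with 8.14 to 8.40 in Sham+CDTX above every other array of the 15 (4.85 to 7.11), and SCI+CDTX 2 read 7.61. Notch1, a receptor that keeps satellite cells quiescent and patterns vessels, was 1.39, and Heyl, its target, 0.99.

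Atrophy genes of the FoxO and ubiquitin ligase list were called negative in 6 of 22 and positive in 1, and with 16 arrays in 2 and 1. They were Usp14 (-2.12), a deubiquitinase of the proteasome, Cdkn1a (-1.57), Map1lc3a (-1.21), the autophagosome protein LC3, Fbxo30 (-1.12), Psmd11 (-1.0) and Foxo1 (-0.85). With 16 arrays Usp14 and Cdkn1a kept their calls, and Fbxo30 lost its call in 12 and Map1lc3a in 2 of the 15 fits that left out 1 array. Traf6, a ubiquitin ligase of inflammatory signalling, was positive at 0.99. The ligase Fbxo32, a marker of atrophy, was called at none of its 3 probes (-1.15 to 0.10).

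Genes of the glucocorticoid response were called negative in 6 of 20 and positive in 1, and with 16 arrays in 4 and 1. Mt1, a metallothionein induced by steroids, metals and stress, read 13.83, 13.72 and 13.93 in SCI+CDTX, 13.88, 13.77, 13.38 and 13.84 in SCI+saline, 12.65, 12.42, 12.48 and 12.33 in Sham+CDTX, and 9.99, 10.22, 10.11 and 10.49 in Sham+Saline. The SCI groups overlapped at the top, and CDTX added to the sham level alone. The interaction was -2.16 ± 0.21 (adjusted p = 3.82e-06), -2.06 with 16 arrays and -1.60 with the score, and Mt2 gave -1.27. Per1, a clock gene with glucocorticoid response elements, was called at both probes (-1.73 and -1.34). Dusp1, a phosphatase that ends MAP kinase signals, was the positive member, at 2.55 ± 0.43 (adjusted p = 0.000333). It was lowered by SCI alone (by 1.73) and by CDTX alone (by 1.22), and rose by 1.33 with CDTX in SCI mice. Its Sham+CDTX arrays spread from 8.78 to 10.17 and overlapped those of SCI+CDTX, at 10.04 to 10.56.

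Monocyte and macrophage genes were called negative in 7 of 24 and positive in 2, with a median of -1.09. With 16 arrays 6 were negative and 1 positive. The list's median CDTX effect was 2.52 after cord injury and 3.52 after sham surgery, and its median effect of SCI alone was 0.79. Gpnmb, a glycoprotein of lipid-laden and phagocytic macrophages, read 12.51, 12.83 and 12.54 in SCI+CDTX, 8.76, 9.66, 8.64 and 10.55 in SCI+saline, 12.64, 12.78, 13.05 and 12.63 in Sham+CDTX, and 7.28, 6.53, 6.97 and 6.40 in Sham+Saline. Both CDTX groups overlapped near the top of the scale, and the saline groups did not. The rise with CDTX was 9.36-fold in SCI mice and 62.9-fold in sham mice, and the interaction was -2.75 ± 0.45 (adjusted p = 0.000258), with 3 of 4 probes called negative. The dimmer probes, at 4.17 to 8.89, gave -1.48, -0.86 and -0.46.

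Cd68 (-1.86), a lysosomal marker of macrophages, Lgals3 (-1.82), a galectin, and Ms4a7 (-1.87 and -1.09) also rose with CDTX in both surgeries, less so after SCI. Ms4a6d gave -2.53 at its brightest probe and -1.48, not called, at the other. The call of Ms4a7 was lost without SCI+CDTX replicate 1. Cx3cr1, the fractalkine receptor of patrolling monocytes and resident macrophages, was different, since it was detected on 4 of 4 Sham+CDTX arrays (5.96 to 6.99), on 2 of 3 SCI+CDTX arrays (4.43 to 4.79) and on 0 of the 8 saline arrays (4.21 to 4.67). SCI+CDTX 2 read 5.10. Its interaction was -1.88, with -1.78 on 16 arrays. Cd163, the haemoglobin scavenger receptor, was positive at 1.41 and 1.30 with 16 arrays, and Cd14, the endotoxin co-receptor, at 1.18 and 0.71, the latter not called.

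The 2 interferon-list genes with the lowest values had unlike forms. Cxcl10, a chemokine for T cells, read 5.55, 5.85 and 6.01 in SCI+CDTX, 6.60, 6.82, 6.17 and 6.47 in SCI+saline, 5.69, 5.98, 5.71 and 5.69 in Sham+CDTX, and 4.24, 4.63, 4.19 and 4.22 in Sham+Saline, where it was detected on 0 of 4 arrays. SCI+saline lay above both CDTX groups, which overlapped, and the interaction was -2.16 ± 0.23 (adjusted p = 7.56e-06), -2.32 with 16 arrays and -2.66 with the score. Ifit2 was high in Sham+CDTX alone, as given above. In all, 5 of 30 members of the list were called negative and 0 positive, the others being Ifitm3 (-1.23), Rtp4 (-0.76) and Gbp3 (-0.63). In the fit with 16 arrays, 4 were negative and 0 positive.

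Neutrophil genes were called positive in 2 of 18, Il1r2 (0.95), a decoy receptor for interleukin 1, and Clec4e (0.64), a receptor for cell debris, and no call was left with 16 arrays. Replicate 4 of both saline groups stood apart on this list. S100a8, a calprotectin subunit and major neutrophil protein, was 12.70 on Sham+Saline 4 and 4.42 to 5.70 on the other Sham+Saline arrays, and 13.06 on SCI+saline 4 and 10.86 to 11.81 on the other SCI+saline arrays. The interaction of S100a8 was -1.40 ± 1.72 and that of S100a9 2.04 ± 1.89, neither called. The spread of these 2 arrays thus leaves this list with little precision.

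Lymphocyte and lymph node genes had a median of 0.86, with 10 of 19 called positive and 0 negative, and 7 and 0 with 16 arrays. Of 25 members with a probe, 19 were kept. The filter asks for detection on 3 arrays, so members detected almost only in SCI+CDTX entered through the group where they are high. For those members the positive sign was built in, and the list's count is no test of a rise. Glycam1, a mucin-like ligand for L-selectin made by the high endothelial venules of lymph nodes, had the largest interaction of all genes tested. It read 10.28, 10.57 and 10.24 in SCI+CDTX and between 4.16 and 4.95 on the 12 arrays of the other groups, of which 1 detected it. SCI+CDTX 2 read 10.20, so all 4 arrays of the group lay together. The fit gave 5.91 ± 0.23 (adjusted p = 6.06e-12), 5.88 with 16 arrays and 5.73 with the score, sizes that depend on the floor since the gene was at background elsewhere. Fcmr, the IgM receptor of B cells, read 7.02, 7.44 and 7.22 in SCI+CDTX and 4.20 to 5.70 elsewhere, and SCI+CDTX 2 read 6.80. Its interaction was 3.15 ± 0.35 (adjusted p = 9.16e-06). Outside SCI+CDTX the highest array was Sham+Saline 4, where Cd79b, at 6.25, was also the highest outside SCI+CDTX.

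Ccl19, a chemokine of lymph node stroma, gave 1.29, and the T cell genes Cd3d, Cd3g, Cd3e, Lck, Cd2 and Cd27 lay between 0.77 and 1.22. Cd3d, Cd3g and Cd3e were detected on all 3 SCI+CDTX arrays, on 1 of 4 Sham+CDTX arrays and on 0 of the 8 saline arrays, so these sizes are not exact. The median level of the list's 19 genes was 5.09 to 5.82 on the 4 SCI+CDTX arrays and 4.32 to 4.77 on the other 12, in the 16-array normalization. The labels do not say how nodes and fat were treated when the muscle was dissected, and the part of such tissue in these values was not tested.

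**Figure D4:**
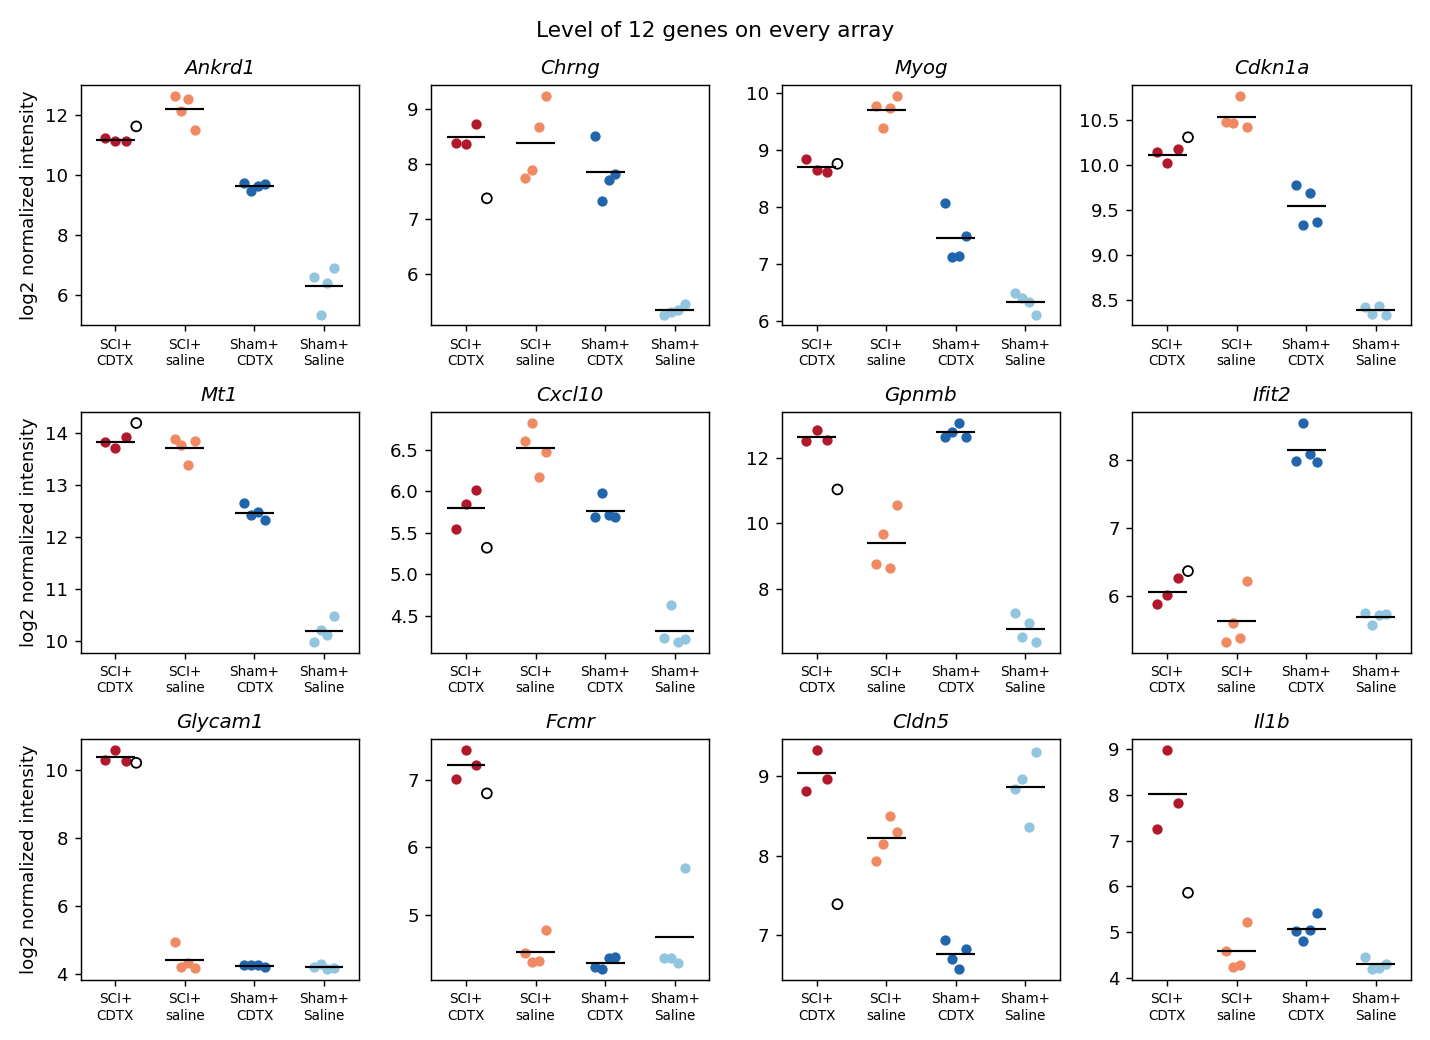
Log2 normalized intensity (y axis, separate scale in each panel) of 12 genes on every array of the 4 groups, with horizontal lines at the group means of the 15 arrays and an open circle for SCI+CDTX 2 from the 16-array normalization. Glycam1 and Fcmr are high on all 4 SCI+CDTX arrays, whereas for Cldn5 and Il1b the open circle lies below the 3 filled SCI+CDTX points.

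Endothelial genes were called positive in 11 of 19 and negative in 0, with a median of 1.09. They stayed positive in 10 with 16 arrays and in 8 with median scaling, and in 0 with the score. Over all 10952 genes the positive counts in these fits were 743, 715 and 9. The list's median CDTX effect was -0.62 in sham mice and 0.48 in SCI mice. Cldn5, the tight junction claudin of endothelium, read 8.81, 9.32 and 8.96 in SCI+CDTX, 7.93, 8.14, 8.50 and 8.30 in SCI+saline, 6.94, 6.70, 6.58 and 6.83 in Sham+CDTX, and 8.83, 8.96, 8.36 and 9.30 in Sham+Saline. Sham+CDTX was the low group with no overlap, and SCI+CDTX overlapped Sham+Saline. The interaction was 2.92 ± 0.27 (adjusted p = 1.97e-06), but SCI+CDTX 2 read 7.39, and the value was 2.49 with 16 arrays and 0.80 with the score (adjusted p = 0.448).

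Vwf, the clotting factor stored in endothelium, gave 2.46 and 2.02 with 16 arrays. Sox18, a transcription factor of vessels and lymphatics, gave 2.02 and 1.83. Aqp1, the water channel of capillaries, was called at all 3 of its probes (0.96 to 1.71), and Egfl7, a secreted vessel matrix protein, at 2 of 3 (1.73, 0.99 and 0.25). Pecam1, the junction protein CD31, was 1.17 at its brightest probe and 1.08 with the score. Median levels of the 19 genes were 7.39 to 7.76 in SCI+saline, 7.53 to 7.66 in Sham+CDTX, 7.87 to 8.31 in SCI+CDTX and 8.04 to 8.36 in Sham+Saline, so that the arrays of each single insult lay below Sham+Saline and those of the combination overlapped it.

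Fibroadipogenic progenitor and matrix genes were called positive in 6 of 26 and negative in 1, with 4 and 0 on 16 arrays. Pi16, a marker of a stem-like fibroblast state, read 8.47, 8.56 and 8.25 in SCI+CDTX, 7.14 to 7.83 in SCI+saline, 6.60 to 7.29 in Sham+CDTX and 8.43 to 9.08 in Sham+Saline. Its interaction was 2.59 ± 0.28 (adjusted p = 6.99e-06), 2.18 with 16 arrays and 0.74 with the score, and SCI+CDTX 2 read 6.82. Cd34, carried by progenitors and endothelium, was 1.51 and 1.46 with 16 arrays. Col5a1 (1.69), Bgn (1.15) and Fbn1 (1.12), proteins of the fibrillar matrix, rose with CDTX in SCI mice, by 2.41, 2.41 and 2.35. In sham mice Bgn rose by 1.27 and Fbn1 by 1.23, and the Col5a1 effect of 0.72 was not called. Neither Bgn nor Col5a1 was called with 16 arrays, and Bgn lost its call in 4 of the 15 fits that left out 1 array. Pdgfrb, a receptor of pericytes and fibroblasts, was 0.93, and Dcn, a small proteoglycan, was -0.87.

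Schwann cell and nerve genes were called positive in 4 of 11 and negative in 1, although their median was -0.13, and with 16 arrays in 2 and 0. Egr2, the factor that commits Schwann cells to myelin and is also induced in activated immune cells, read 7.35 to 7.55 in SCI+CDTX and 5.75 to 6.38 on the other arrays of the 15, with 6.58 on SCI+CDTX 2 and an interaction of 1.30. Prx (1.24) and Mag (0.85), myelin proteins, were lowered by CDTX in sham mice. Prx lost its call in 7 and Mag in 10 of the 15 fits that left out 1 array, and Mag was not called with 16 arrays (adjusted p = 0.0684). Gal, a neuropeptide of injured nerve, had -2.08 ± 0.75 and was not called (adjusted p = 0.0512).

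Among ossification signals, 7 of 38 measured genes were called positive and 8 negative, with 4 and 4 on 16 arrays, and no member kept its call with the score. Of the ligands and cytokines, Il1b, the inflammatory interleukin 1 beta, read 7.24, 8.97 and 7.82 in SCI+CDTX, 4.60, 4.25, 4.29 and 5.22 in SCI+saline, 5.02, 4.81, 5.04 and 5.42 in Sham+CDTX, and 4.46, 4.20, 4.22 and 4.30 in Sham+Saline. The 3 SCI+CDTX arrays lay above all others, and SCI+CDTX 2, at 5.86, lay between. Il1b was detected on 1 of 4 SCI+saline and 0 of 4 Sham+Saline arrays, so the sizes rest on the background level and are not exact. The interaction was 2.64 ± 0.40 (adjusted p = 0.000144), 2.10 with 16 arrays and 0.21 with the score. Il1rn, the antagonist of the same receptor, gave 1.97 and 1.51 with 16 arrays, with the same limit, since it too was detected on 1 of 4 SCI+saline and 0 of 4 Sham+Saline arrays.

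Osm, the gp130 cytokine oncostatin M that macrophages release, was 0.95 ± 0.32 (adjusted p = 0.0348). It read 5.82, 6.48 and 6.71 in SCI+CDTX, 4.23 to 5.20 in SCI+saline, 5.14 to 5.46 in Sham+CDTX and 4.21 to 4.73 in Sham+Saline, and 5.16 in SCI+CDTX 2. It was detected on 2 of 4 SCI+saline and 0 of 4 Sham+Saline arrays. The call was lost with 16 arrays (0.65), in 9 of the 15 fits that left out 1 array, and turned to -0.35 with the score. Csf1, the growth factor of macrophages and osteoclasts, was 1.64, and 1.19 with 16 arrays, not called. Tgfb2 (-0.97) and Bmp4 (-0.87), ligands of the TGF-beta family, were negative and were not called with 16 arrays, and Bmp4 lost its call in 9 of the 15 fits that left out 1 array.

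Bmp1, a protease that matures procollagen and not a BMP ligand in spite of its name, had the largest value of the list. Its brightest probe read 9.14, 9.78 and 9.78 in SCI+CDTX, 7.40, 6.96, 7.69 and 7.97 in SCI+saline, 7.55, 7.59, 7.23 and 7.20 in Sham+CDTX, and 8.42, 8.60, 8.43 and 8.89 in Sham+Saline. SCI+CDTX lay above every other array, but SCI+CDTX 2 read 7.07. The probes from bases 3633, 3069, 3067 and 1072 of the transcript gave 3.25, 1.14, 0.98 and 0.30, in the order from the most downstream to the most upstream. With the score the brightest gave 0.14.

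Of receptors and transducers, Tgfbr1, the type I TGF-beta receptor, was -2.15 ± 0.22 (adjusted p = 4.27e-06) and -1.89 with 16 arrays, with 2 of 3 probes called. It read 9.23 to 9.71 in SCI+CDTX, 10.10 to 10.70 in SCI+saline, 9.94 to 10.15 in Sham+CDTX and 8.65 to 8.99 in Sham+Saline, so each array with a single insult lay above the 3 with both, while SCI+CDTX 2 read 10.46. Bmpr1a (-1.0), a type I BMP receptor, Jak1 (-1.08), a kinase below gp130, and Il6ra (-0.89), the interleukin 6 receptor, were negative. Smad1 (0.75), a BMP transducer, was positive at 1 of 3 probes and lost its call with 16 arrays and in 4 of the 15 fits that left out 1 array. The interaction of Jak1 turned to 1.33 and that of Bmpr1a to 0.31 with the score.

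Of the targets, Id2, an early target of BMP signals, was -2.87 ± 0.35 (adjusted p = 2.03e-05), with 7.26 to 7.54 in SCI+CDTX, 7.25 to 8.05 in SCI+saline, 7.31 to 8.39 in Sham+CDTX and 4.97 to 5.87 in Sham+Saline. The 3 injured groups overlapped, and the second Id2 probe was not called (-0.69). Sox9, the master factor of cartilage, was -0.85 and -0.85 with 16 arrays, at levels of 4.26 to 5.77, and its call was lost without SCI+CDTX replicate 4 or Sham+CDTX replicate 3. Socs3, the feedback inhibitor of JAK and STAT signalling, was 2.02 ± 0.45 (adjusted p = 0.00295) and 1.72 with 16 arrays. It stood at 8.04 to 8.99 in SCI+CDTX, above the other arrays of the 15 (6.04 to 7.93), and SCI+CDTX 2 read 7.47.

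**Figure D5:**
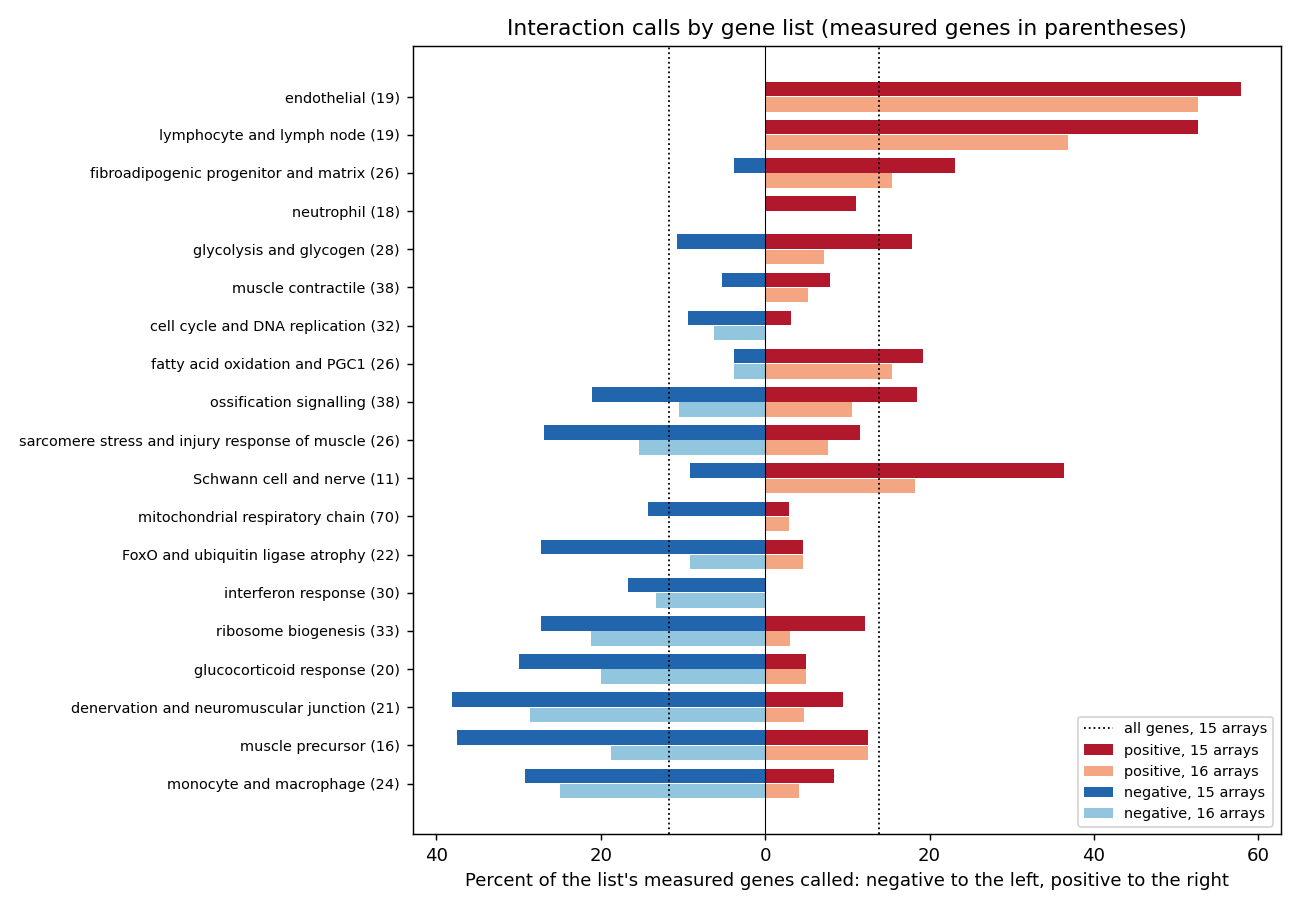
Percent of the measured genes of each list (numbers in parentheses) called positive (right) or negative (left) in the interaction at the brightest probe. Dark bars are for 15 arrays and light bars for 16 arrays, and lists are ordered by their median interaction. Dotted lines mark 13.9% and 11.7% over all genes with 15 arrays and are no background for the light bars. The endothelial and the lymphocyte and lymph node lists lie farthest to the right of the line, and the denervation and muscle precursor lists farthest to the left. The lymphocyte and lymph node bar is no test of a rise. Members of that list detected almost only in SCI+CDTX passed the filter through the group where they are high.

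Genes of energy metabolism had modest counts. Of 28 genes of glycolysis and glycogen, 5 were called positive and 3 negative, and with 16 arrays 2 and 0. Slc2a1, a glucose transporter of many proliferating and endothelial cells, was highest at 1.82, and Pfkl and Pfkp, phosphofructokinase isoforms outside mature fibres, were 1.26 and 1.02. Prkaa2 (-2.57), Phkb (-2.18) and Ugp2 (-1.37) were negative and turned sign with the score, and Ugp2 lost its call in 6 of the 15 fits that left out 1 array. Of 26 genes of fatty acid oxidation, 5 were positive and 1 negative, with a median of -0.04, and with 16 arrays 4 and 1. Decr1, which handles unsaturated fatty acids, read 6.88, 6.62 and 6.87 in SCI+CDTX, 7.27 to 8.12 in SCI+saline, 5.82 to 5.95 in Sham+CDTX and 8.75 to 9.25 in Sham+Saline. CDTX lowered it by 3.14 in sham and by 0.83 in SCI mice, and the interaction of 2.31 was 1.96 with 16 arrays, although SCI+CDTX 2 read 5.42. Cpt1b, the carnitine transferase of muscle, was called at both probes (0.76 and 0.95).

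Of 70 genes of the mitochondrial respiratory chain, 10 were negative and 2 positive, and with 16 arrays 0 were negative and 2 positive. Cox6c (-2.27), Cox7b (-2.20), Ndufb9 (-1.65) and Ndufb5 (-1.50) had the lowest values, and all turned positive with the score. With median scaling 33 of the 70 were negative, beside 2973 of all 10952 genes tested. Ndufv1, a complex I subunit, was 1.15 and 0.98 with 16 arrays.

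Ribosome biogenesis genes were called negative in 9 of 33 and positive in 4, with 7 and 1 on 16 arrays. Nop58, a core protein of box C/D snoRNPs, read 6.92, 6.91 and 6.64 in SCI+CDTX, 8.49, 8.96, 7.75 and 7.03 in SCI+saline, 9.11, 8.69, 9.96 and 9.12 in Sham+CDTX, and 6.75, 6.69, 7.32 and 6.72 in Sham+Saline. SCI+CDTX overlapped Sham+Saline, and SCI+CDTX 2 read 9.21. The interaction was -3.59 ± 0.47 (adjusted p = 3.91e-05), -2.99 with 16 arrays and -0.35 with the score. Npm1 (-1.53), the nucleolar chaperone, and Nhp2 (-1.38), of box H/ACA snoRNPs, kept their calls with 16 arrays. Bop1 (1.66), a pre-ribosome factor, did not, at 1.24.

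The 32 cell cycle genes had median CDTX effects of 1.72 after SCI and 1.67 after sham surgery, and in the interaction 3 were called negative and 1 positive, and with 16 arrays 2 and 0. Cdk1, the mitotic kinase, was -1.44, Pcna, the replication clamp, -0.82, and Rrm2, a ribonucleotide reductase subunit, -0.84, with -1.82 for Rrm2 with the score. Cdk1 lost its call in 5 of the 15 fits that left out 1 array, and Rrm2 without SCI+CDTX replicate 1. Ccnd1, cyclin D1, was 0.99 and 0.87 at 2 of 3 probes and was not called with 16 arrays or, at the brightest, without SCI+CDTX replicate 3.

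Genes with a single kept probe have no second probe to check them. After Glycam1 and Fcmr, the largest were Il4i1 (2.98), an amino acid oxidase of immune cells, and Cldn5. The 4 lowest were Nop58, LOC668837 (-3.36), Rrad and Nfib (-3.16), a nuclear factor, of which LOC668837 and Nfib were not called with 16 arrays and turned positive with the score. Il4i1 read 6.84, 7.01 and 6.89 in SCI+CDTX, 4.77 to 5.42 in SCI+saline, 5.65 to 6.35 in Sham+CDTX and 6.57 to 7.65 in Sham+Saline. Only the SCI+saline arrays lay below all others, and the value was 2.64 with 16 arrays. Retsat, a retinol saturase, was called at both probes with unequal sizes (2.99 and 0.93).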

How the data were processed

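Illumina BeadChip data were used from the deposited non-normalized table, which per the file headers holds the mean bead intensity and a detection p-value of 25697 probes on each array; the submitters' processing notes name GenomeStudio version 2011.1. In the authors' deposited final table are normalized group means of intensity, used as an alternative only. Intensities were background-corrected (neqc, offset 16), quantile normalized and set to log2 in limma 3.58.1 (R 4.3.3). A probe was kept if 3 or more arrays detected it (p under 0.05). A model of all 4 groups was fitted with empirical Bayes (11 residual degrees of freedom), with Benjamini-Hochberg adjustment over all probes. It was tested on simulated data. SCI+CDTX 2, left out by the authors per the labels, returned in the alternatives. Symbols were updated through RefSeq for 4172 of 23681 matched probes. The array's genome build is not given in the sources used here, so probes have no coordinates.

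The comparison, its members and the 19 gene lists were chosen with earlier results of these data known. Named genes are the 12 highest and 12 lowest with all probes called alike, ranked by the probe nearest 0, the 4 highest and 4 lowest single-probe genes, up to 4 members of each list with the largest values, every called ossification gene, and 10 genes known from earlier results. Where a list is described, other called members and the 26 genes called in 3 fits were named after their values were seen. A gene is given by its kept probe with the highest mean unless several are printed. The number of arrays limits the precision.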

Additional observations from a re-analysis of the deposited data

Results flagged for a closer look

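The interaction itself is a difference between the surgeries in the effect of CDTX, and 3507 probes passed its test. The 183 genes with all probes called alike are a count and not a test of genes. Of the 26 genes called with 15 arrays, with 16 arrays and with the score, the 10 that the naming rule had picked were Glycam1 (5.91), Fcmr (3.15), Ankrd1 (-4.37), Gpnmb (-2.75), Chrng (-2.40), Mt1 (-2.16), Cxcl10 (-2.16), Myog (-2.13), Cdkn1a (-1.57) and Rrm2 (-0.84).

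Of 339 sets of 4 arrays, 25 held an array whose gap to the nearest other was beyond Dixon's 95% limit, where chance gives about 1 in 20. Sham+Saline 4 was high for S100a8 (12.70), S100a9 (11.27), Mmp9 (9.76), Fpr2 (7.24), Cd79b (6.25), Fcmr (5.70) and Cdk1 (5.50). Sham+Saline 3 was high for Nop58 (7.32) and Phkb (10.02), Sham+Saline 2 was low for Ifit2 (5.56) and Per2 (4.96) and high for Cxcl10 (4.63), and Sham+Saline 1 was low for Cox7b (7.10), Jak1 (6.26) and Ndufb5 (10.30). Among Sham+CDTX arrays, replicate 1 was low for Perm1 (8.93), replicate 2 low for Cd79b (4.55) and high for Cxcl10 (5.98), replicate 3 low for Pi16 (6.60), and replicate 4 high for Hp (9.81) and low for Irf7 (7.08). Among SCI+saline arrays, Cdkn1a was high (10.77) and Npm1 low (11.27) on replicate 3, Glycam1 high on replicate 1 (4.95) and Id2 low on replicate 4 (7.25).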

How the results depend on the processing

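Of 103 named genes called with 15 arrays, 101 kept their call with the replicate block and 103 with array weights on all 16 arrays. The call stayed for 102 with each slide normalized separately, 95 with median scaling and 97 without background correction. It stayed for 70 with all 16 arrays and for 10 with the score, where 33 changed sign. All 87 that could be set beside the authors' group means had the same sign there. Those means come from arrays of the same series, so the match of signs is no independent check. Between arrays of different groups the median r of deviations was -0.02 for equal and 0.01 for unequal replicate numbers. The highest r, 0.38, was that of SCI+saline 4 with Sham+Saline 4. These medians do not decide whether arrays with equal numbers are linked. The replicate block gave 3208 probes called.

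Probes called numbered 1568 with 16 arrays, 68 with SCI+CDTX 2 in place of the other 3 and 43 with the score, and positive ones 871, 19 and 9, or 841 with median scaling. Genes with all probes called alike numbered 68, 4 and 1, and 394 with median scaling and 114 with no detection filter; 143 had separate sites, a rule added after the data were seen. Leaving out 1 array at a time gave 2780 to 3847 probes called, 1435 to 1923 positive and 133 to 219 genes alike, and 87 of the 103 genes kept their call each time. The cause of these shifts was not tested, beyond the smaller number of arrays where SCI+CDTX 2 stands alone.

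With the score these genes changed sign: Slirp 0.25, Anxa11 0.28, Bgn -0.08, Bmpr1a 0.31, Bop1 -0.64, Ccnd1 -0.99, Col5a1 -0.02, Cox6c 0.80, Cox7b 0.36, Csf1 -0.61, Fbxo30 0.35, Jak1 1.33, LOC668837 1.03, Mef2c 0.89, Mlf1 1.16, Mllt3 0.50, Myom1 0.89, Myoz1 0.68, Ndufb5 0.20, Ndufb9 0.40, Nfib 1.16, Osm -0.35, Eci2 0.24, Phkb 0.91, Pik3r1 0.49, Pja2 0.75, Prkaa2 0.87, Psmd6 0.91, Tgfb2 0.28, Ttyh2 -0.26, Twistnb 0.27, Ugp2 1.16, Usp14 0.30. With SCI+CDTX 2 alone they were: Anxa11 0.11, Bgn -0.01, Bmpr1a 0.14, Ccnd1 -0.56, Csf1 -0.18, Jak1 0.89, LOC668837 0.18, Mef2c 0.34, Mlf1 0.47, Myom1 0.56, Myoz1 0.47, Ndufb9 0.18, Nfib 0.41, Osm -0.26, Phkb 0.29, Pja2 0.22, Prkaa2 0.06, Psmd6 0.47, Tgfb2 0.13, Ugp2 0.50. Fbxo30 and Mag lost their call with the replicate block.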
